A study of Mus musculus with 6 samples.

Results

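The prostaglandin genes described here are 10 genes of prostaglandin synthesis and reception: Pla2g4a, Ptgs1, Ptgs2, Ptges, Ptges2, Ptges3, Ptgis, Ptger2, Ptger4 and Ptgfr. They were chosen by symbol for the eicosanoid output of stromal cells, and all 10 are among the 18124 genes of the deposited table. RNA was sequenced from mesenchymal stem cells of mouse skeletal muscle, which carry a collagen 1 reporter with green fluorescent protein (genotype Col1-GFP) and were sorted from the quadriceps of 6 naive male mice as cells positive for this reporter and for Sca-1. At passage 4 they grew for 72 hours in medium that wild type macrophages, differentiated from bone marrow, had conditioned, and this medium was renewed at 24 and 48 hours. In the control group (3 libraries) the macrophages were non-senescent, and in the senescent group (3 libraries) they had been exposed to 300 µM hydrogen peroxide for 3 hours, exposed again 3 days later and cultured for 14 more days. Each medium, called control medium and senescent medium here, was a pool of 2 collections of 48 hours. The sources used here do not give the ages of the mice, any pooling of cells from different mice, or the culture time of the control macrophages. No label ties the libraries of a group to separate animals or cultures, so p-values cover only how much these libraries vary, and that variation may be technical.

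Prostaglandins are short-lived lipid signals made on demand from arachidonic acid. Cytosolic phospholipase A2 (Pla2g4a) frees arachidonic acid from membranes, the cyclooxygenases COX-1 (Ptgs1, active in most tissues at rest) and COX-2 (Ptgs2, induced by cytokines and growth factors) turn it into prostaglandin H2, and terminal synthases make the individual prostaglandins. In muscle, prostaglandin E2 acts through the receptor EP4 (Ptger4) on muscle stem cells during repair, and prostacyclin, the product of Ptgis, relaxes vessels and restrains platelets.

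The upstream sequences of both cyclooxygenase genes and of Ptgfr are shown because the cyclooxygenases catalyse the same step but differed in the size of their change, and because Ptgfr had the largest change of the 10 genes. Each window holds 250 bases before and 30 bases after the RefSeq gene start on build GRCm38.p6, written 5′ to 3′ on the gene's strand: Ptgs2 at chr1:150099781-150100060 (plus strand), Ptgs1 at chr2:36230176-36230455 (plus strand) and Ptgfr at chr3:151837499-151837778 (minus strand). Capitals mark matches to the 6 motifs searched below.
Ptgs2: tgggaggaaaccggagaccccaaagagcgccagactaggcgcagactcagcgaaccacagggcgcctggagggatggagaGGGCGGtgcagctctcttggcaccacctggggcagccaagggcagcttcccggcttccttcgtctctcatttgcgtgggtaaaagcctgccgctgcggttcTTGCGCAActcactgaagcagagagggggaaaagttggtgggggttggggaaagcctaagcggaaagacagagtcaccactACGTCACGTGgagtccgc
Ptgs1: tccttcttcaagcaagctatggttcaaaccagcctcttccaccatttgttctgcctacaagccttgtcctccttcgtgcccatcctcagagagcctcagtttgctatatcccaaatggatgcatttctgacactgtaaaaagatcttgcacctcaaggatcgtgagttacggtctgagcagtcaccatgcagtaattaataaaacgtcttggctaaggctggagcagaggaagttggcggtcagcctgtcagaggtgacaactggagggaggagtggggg
Ptgfr: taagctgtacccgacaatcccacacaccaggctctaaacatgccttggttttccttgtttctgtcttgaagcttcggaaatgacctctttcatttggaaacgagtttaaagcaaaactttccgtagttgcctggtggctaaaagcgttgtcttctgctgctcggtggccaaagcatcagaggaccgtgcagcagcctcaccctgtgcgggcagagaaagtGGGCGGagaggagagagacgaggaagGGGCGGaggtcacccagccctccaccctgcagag
A RefSeq window was found for 9 of the 10 genes. Both strands were searched for the cAMP response element core TGACGT, the E-box CACGTG, the C/EBP palindrome TTGCGCAA, the GC box GGGCGG, the TATA box TATAAA and an NF-kB consensus. The Ptgs2 window held a C/EBP palindrome at bases −69 to −62 from the gene start, a GC box at −170 to −165, and a cAMP core at 13 to 18 that shares its last bases with an E-box at 17 to 22. Such a palindrome was present in 0.18% of 32851 windows of 280 bases, a cAMP core in 7.26%, an E-box in 6.79% and a GC box in 34.7%. None of the 6 motifs matched in the Ptgs1 window. The Ptgfr window held 2 GC boxes, as did that of Ptges. The windows of Ptger4 and Ptges3 held 4 each, and in Ptger4 1 pair overlaps by a base. The GC content was 61.4% for Ptgs2, 49.6% for Ptgs1 and 53.9% for Ptgfr, against a median of 52.5% over all windows. These matches describe the letters only; no binding was measured.

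Library totals ran from 17228162 to 21659434 estimated counts. Both genes behind the sort were abundant, Ly6a (Sca-1) at 1206 and 1235 CPM and Col1a1 at 5361 and 7516 CPM on average in control and senescent medium, and the summed level of 10 stromal genes was 13900 to 14000 CPM in control and 18500 to 19000 CPM in senescent medium. Of these 10 genes 6 were called higher and 3 lower: the sum is mostly that of Col1a1, Col1a2 and Col3a1, which rose, while Dpt (log2 fold change −0.85), Pdgfrb (−0.30) and Pdgfra (−0.29) fell. CPM are counts per 1000000, scaled by the trimmed mean of M-values (TMM) factors of edgeR. Of 16 macrophage markers 6 were listed in the table, with a summed level of 19.1 to 22.2 CPM in control and 18.3 to 24.4 CPM in senescent medium; the defining genes Ptprc, Adgre1, Itgam and Tyrobp were not listed. Within that sum Lyz2 rose (0.80) and Cd14 (−1.14) and Csf1r (−0.53) fell. Of 8 endothelial markers 4 were listed, at 24.2 to 26.5 against 26.3 to 33.2 CPM in sum, and Cdh5 and Cldn5 were not. Most of that sum was Tek, at 23.8 and 26.9 CPM on average, which was not called. Kdr was called higher (1.255), from a low level of 0.71 to 1.68 CPM. Of 8 muscle cell markers 3 were listed, at 9.78 to 11.5 against 17.8 to 19.9 CPM in sum, and Myod1, Myog and Pax7 were not. Of 6 pericyte and smooth muscle markers 5 were listed, at 102 to 113 against 104 to 118 CPM in sum. Most of that sum was Notch3, at 78.8 and 78.6 CPM on average, which was not called. Cspg4 was called higher (0.97) and Myh11 lower (−0.998), so this sum hides changes in opposite directions. The part of these cell types in the results was not tested. In bulk RNA, fewer cells of a type and less RNA per cell cannot be told apart.

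Among the 10 genes, the transcripts of Pla2g4a, Ptgs1 and Ptgs2, which act early in synthesis, were lower in senescent medium, and that of prostacyclin synthase was higher. Ptgs1 and Pla2g4a fell 1.70-fold and 1.46-fold, Ptgs2 fell 1.14-fold, and the receptor genes Ptgfr and Ptger4 fell 2.34-fold and 1.16-fold. Ptgis rose 1.31-fold. Ptges, Ptges2 and Ptges3, which encode the prostaglandin E synthases, did not pass the threshold of 0.05 on the adjusted p (edgeR quasi-likelihood test, Benjamini-Hochberg adjustment over 14644 genes). Of the 10 genes 9 passed the filter on low counts, 5 of these were called lower and 1 higher, and Ptger2 was too low to be tested. Over all tested genes 49.5% were called, 24.9% lower and 24.6% higher. The median log2 fold change of the 9 genes was −0.19, beside −0.000961 over all genes tested. The CPM of the 2 media did not overlap for 6 of the 9 genes, against 55.8% of all genes tested.

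**Figure D1:**
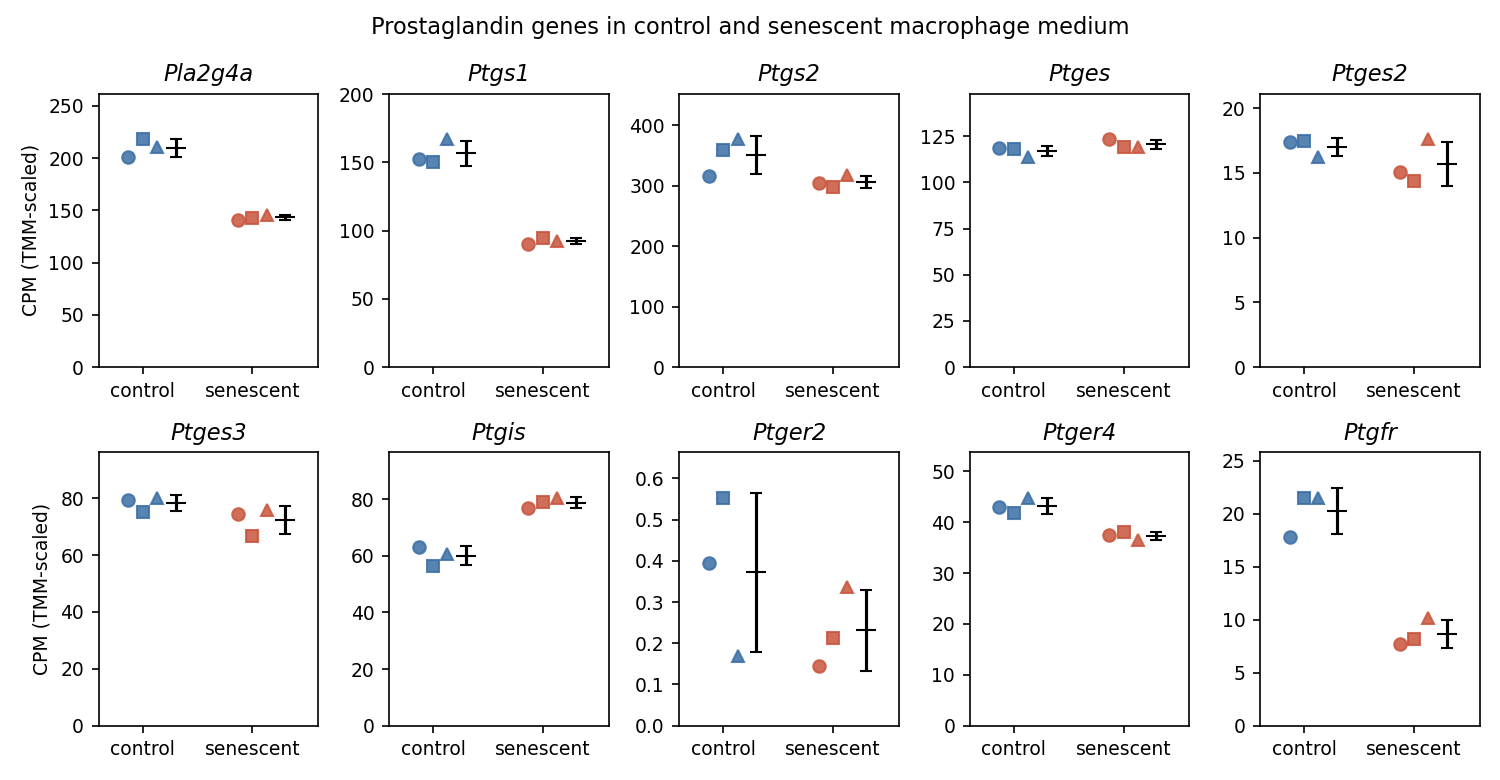
TMM-scaled CPM (y axis, from 0) of the 10 prostaglandin genes in the 3 control and 3 senescent medium libraries; circles, squares and triangles are replicates 1, 2 and 3, and the bar is mean ± SD. The groups stand clear of each other for Ptgs1, Pla2g4a, Ptgfr, Ptgis, Ptger4 and, narrowly, Ptges, and overlap for Ptgs2, Ptges2, Ptges3 and Ptger2.

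Pla2g4a (ENSMUSG00000056220), whose product supplies arachidonic acid, stood at 201, 218 and 210.3 CPM in control replicates 1, 2 and 3 and at 141, 143 and 146 CPM in the senescent ones. All 3 senescent libraries lay below all control libraries, by a wide gap. The log2 fold change was −0.55 ± 0.038 (SE; adjusted p = 2.34e-13, edgeR), from 209.7 ± 8.75 to 143 ± 2.28 CPM (mean ± SD, n = 3 each). Other genes that release arachidonic acid or its precursors did not share this fall. Of 11 tested genes 5 rose and 0 fell (edgeR; also 0 at an unadjusted p under 0.05, with DESeq2 and with limma). This stands beside 24.6% higher and 24.9% lower over all genes, and the median over the list was 0.58 (log2). Not all 5 are named here. Among those that rose were Mgll, a lipase that cleaves monoacylglycerols, from 14.6 ± 0.648 to 29.9 ± 0.897 CPM, and the phospholipase genes Pla2g15 (lysosomal), from 49.9 ± 1.24 to 74.8 ± 2.31 CPM, and Pla2g12a (secreted), from 10.4 ± 0.549 to 19.6 ± 0.796 CPM.

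Genes that make arachidonic acid or return it to membranes fell or missed the threshold. Of 7 tested genes 5 fell and 0 rose (edgeR; also 0 at an unadjusted p under 0.05, with DESeq2 and with limma). With upper quartile factors 1 was called higher. Shares over all genes were 24.9% lower and 24.6% higher. Acsl4, which activates arachidonic acid for reacylation, fell from 213 ± 8.61 to 126 ± 7.54 CPM (log2 fold change −0.76 ± 0.043), and Acsl3, another long-chain acyl-CoA synthetase, from 29.0 ± 2.69 to 15.1 ± 0.646 CPM (−0.94 ± 0.081). The desaturase gene Fads2 fell less, from 140.0 ± 4.34 to 120.2 ± 3.90 CPM (−0.22 ± 0.041).

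Ptgs1 (ENSMUSG00000047250) stood at 153, 151 and 167 CPM in the control libraries and at 90.3, 94.5 and 92.2 CPM in the senescent ones. The groups were far apart, and the senescent libraries differed from each other by less than the control ones. Its mean fell from 157 ± 9.01 to 92.3 ± 2.10 CPM (−0.76 ± 0.043 on the log2 scale, edgeR adjusted p = 1.73e-15). No other of the 9 tested genes had a lower adjusted p.

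Ptgs2 (ENSMUSG00000032487), the most abundant of the 10 genes per length (TPM), stood at 316, 359 and 377 CPM in the control libraries and at 305, 298 and 318 CPM in the senescent ones. Senescent replicate 3 lay above control replicate 1, so the groups overlapped, and the control libraries varied most, with a coefficient of variation of 8.9% against 3.34%. Its mean went from 351 ± 31.2 to 307 ± 10.2 CPM (−0.19 ± 0.057 on the log2 scale, edgeR adjusted p = 0.0152). Without control replicate 2 the adjusted p was 0.0850. Between 5591 and 7775 estimated counts lay behind these values, so counting error was small beside the spread of the libraries.

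The cyclooxygenases were compared with each other within each library as a ratio of levels per length, and such a ratio does not depend on the scaling of libraries. These levels are transcripts per 1000000 (TPM), computed from the counts and the summed exon length of each gene. The ratio of Ptgs2 to Ptgs1 was 1.76, 2.02 and 1.92 in the control libraries and 2.86, 2.67 and 2.92 in the senescent ones. Every senescent library had a higher ratio than every control library. On the log2 scale the mean ratio went from 0.92 ± 0.10 to 1.49 ± 0.068 (SD, n = 3), a difference of 0.57. An exact two-sided permutation test of 3 against 3 libraries gave p = 0.1, the smallest it can give, and an adjusted p of 0.15 over the 3 ratios tested. Both cyclooxygenases together went from 409 ± 34.5 to 290.1 ± 7.32 TPM, and the share of Ptgs2 in that sum went from 65.4% ± 1.58 to 73.8% ± 0.911 (SD, n = 3). The sum, unlike the ratio and the share, depends on the scaling. The sizes of the sum, the ratio and the share all depend on the gene length used. With the longest annotated transcript as length the mean log2 ratio went from 0.52 to 1.10, by the same 0.57. With libraries scaled as TPM scales them, the log2 fold change was −0.89 for Ptgs1 and −0.32 for Ptgs2, larger falls than the −0.76 and −0.19 with TMM.

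**Figure D2:**
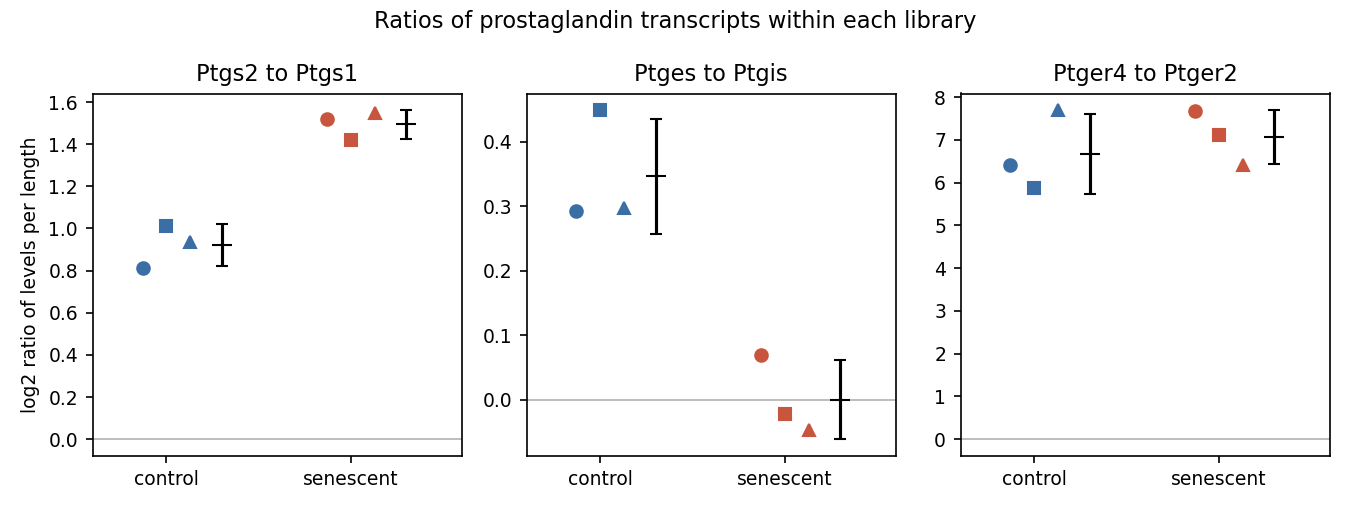
Log2 ratios of TPM levels within each library (y axis) for Ptgs2 to Ptgs1, Ptges to Ptgis and Ptger4 to Ptger2, in control and senescent medium; symbols are replicates as before and bars are mean ± SD. The first ratio is higher and the second lower in all 3 senescent libraries, and the third overlaps widely.

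Among the terminal synthases, Ptgis (ENSMUSG00000017969), which makes prostacyclin, stood at 63.3, 56.5 and 60.5 CPM in the control libraries and at 76.8, 79.0 and 80.6 CPM in the senescent ones. All senescent libraries lay above all control ones. The mean rose from 60.1 ± 3.41 to 78.8 ± 1.90 CPM (0.39 ± 0.050 on the log2 scale, edgeR adjusted p = 7.77e-08). This gene is the only one of the 9 that was called higher, here and under each of the 17 alternatives tried.

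Ptges (ENSMUSG00000050737), the inducible microsomal prostaglandin E synthase that works with COX-2, stood at 119, 118 and 114 CPM in control and at 123, 119 and 119 CPM in senescent medium. The senescent libraries lay above the control ones by less than 1 CPM at the nearest pair. The log2 fold change was 0.045 ± 0.040 (adjusted p = 0.367, edgeR), and 2 SE around it spanned −0.035 to 0.13. Its sign depended on the scaling: it was −0.036 with library totals and −0.083 with libraries scaled by their per-length totals, as TPM scales them. That last scaling, tried after the data were seen, moved the median log2 fold change of all genes by −0.13. The mean TPM of Ptges accordingly went from 104 ± 1.75 to 98.1 ± 1.32.

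The ratio of Ptges to Ptgis per length was 1.23, 1.37 and 1.23 in the control libraries and 1.05, 0.985 and 0.967 in the senescent ones. It was lower in every senescent library than in every control library, and with summed exon length it was near 1 there. The log2 ratio changed by −0.35, from 0.35 ± 0.089 to −0.000022 ± 0.062 (SD, n = 3, exact two-sided permutation p = 0.1, adjusted p = 0.15). With the longest annotated transcript as length it went from 0.17 to −0.18, by the same −0.35.

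The other prostaglandin E synthase genes are expressed in most cells. Ptges2 (ENSMUSG00000026820), which encodes a microsomal enzyme, stood at 17.4, 17.5 and 16.2 CPM in control and at 15.1, 14.4 and 17.6 CPM in senescent medium. Senescent replicate 3 was the highest of the 6 libraries, and the groups overlapped (log2 fold change −0.12 ± 0.090, adjusted p = 0.296, edgeR). Ptges3 (ENSMUSG00000071072) encodes the cytosolic prostaglandin E synthase, also known as the Hsp90 co-chaperone p23. It stood at 79.5, 75.1 and 80.2 CPM in control and at 74.6, 66.6 and 75.7 CPM in senescent medium. The groups overlapped, and the log2 fold change of −0.11 ± 0.050 missed the threshold (unadjusted p = 0.0358, adjusted p = 0.0688, edgeR). It passed with library totals (−0.19, adjusted p = 0.00316) and with per-length totals (−0.24, adjusted p = 0.000281). The table also lists the processed copy Ptges3-ps, at 17.4 to 21.0 CPM in control and 15.8 to 20.1 CPM in senescent medium, so reads of the gene and its copy may be split between them.

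Genes of the Hsp90 machinery, with which the Ptges3 product works, were called lower more often than higher. Of 12 tested genes 2 rose and 5 fell, beside 24.6% higher and 24.9% lower over all genes. With library totals and with per-length totals 1 rose and 8 fell. The median over the list in the main test was −0.091 (log2). Those called higher were Hsp90ab1, from 1308 ± 24.0 to 1531 ± 16.1 CPM, and Cdc37, from 162 ± 4.3 to 179 ± 3.4 CPM. Hsp90aa1 missed the threshold (0.067 ± 0.038, adjusted p = 0.142, edgeR). Dnaja1, a J-domain co-chaperone, fell from 103 ± 4.41 to 74.8 ± 2.59 CPM, Hspa4, a nucleotide exchange factor, from 261 ± 3.63 to 210.0 ± 2.29 CPM and Stip1, the adaptor between Hsp70 and Hsp90, from 112 ± 7.03 to 83.8 ± 4.82 CPM.

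**Figure D3:**
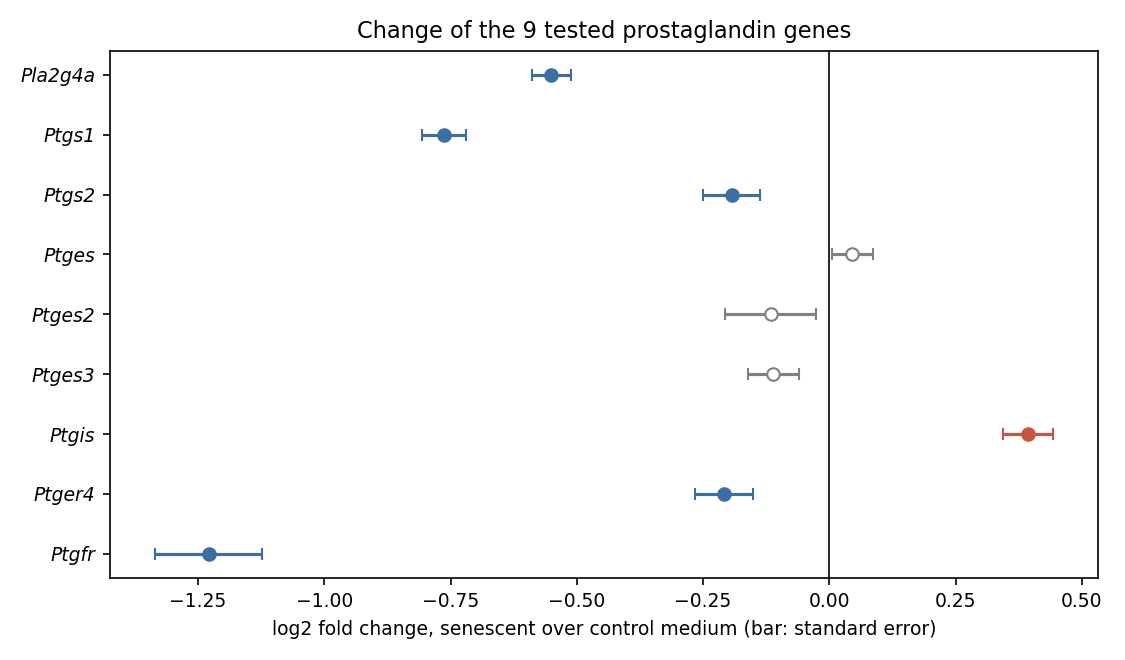
Log2 fold change of senescent over control medium (x axis) for the 9 tested genes, with standard errors as bars. Filled points passed the adjusted threshold, 5 to the left of 0 and 1, Ptgis, to the right; open points (Ptges, Ptges2, Ptges3) did not.

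Other terminal synthase genes moved both ways. Of 6 tested genes 3 fell and 1 rose, beside 24.9% lower and 24.6% higher over all genes. Akr1c18, an aldo-keto reductase that inactivates progesterone and can make prostaglandin F2α, fell from 9.24 ± 0.500 to 3.46 ± 0.414 CPM, a log2 difference of −1.41 ± 0.14 (edgeR adjusted p = 9.53e-10). Cbr1, a carbonyl reductase that converts prostaglandin E2 to F2α, changed by −0.33 ± 0.062 and the aldose reductase gene Akr1b3 by −0.24 ± 0.061, and both fell. Akr1b8, a related reductase, rose by 0.20 ± 0.060 (adjusted p = 0.00699, edgeR), a call lost with library totals (adjusted p = 0.113), with per-length totals (0.361) and without senescent replicate 2 (0.0567). Fam213b, a prostamide and prostaglandin F synthase, and Cbr2 missed the threshold (adjusted p = 0.0960 and 0.0816), but Fam213b passed without senescent replicate 1 (0.0490) and Cbr2 without control replicate 3 (0.0395) and with per-length totals (0.0415). The prostaglandin D synthase gene Hpgds lay below the filter, and Ptgds and the thromboxane synthase gene Tbxas1 were not listed.

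Of the receptors, Ptgfr (ENSMUSG00000028036), the receptor for prostaglandin F2α that signals through calcium, had the largest change of the 9 genes. It stood at 17.8, 21.5 and 21.5 CPM in the control libraries and at 7.68, 8.15 and 10.1 CPM in the senescent ones. Every senescent library was well below every control library. The mean fell from 20.3 ± 2.16 to 8.66 ± 1.31 CPM (−1.23 ± 0.11 on the log2 scale, edgeR adjusted p = 7.14e-11). Over all tested genes 5.9% were called with a change of at least 1 on the log2 scale, and Ptgfr was the only one of the 9 among them. Between 153 and 467 counts per library lay behind it.

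Ptger4 (ENSMUSG00000039942) encodes EP4, a prostaglandin E2 receptor that raises cAMP. It stood at 42.9, 41.8 and 44.8 CPM in control and at 37.5, 38.0 and 36.5 CPM in senescent medium, with no overlap. The fall was small, from 43.2 ± 1.52 to 37.3 ± 0.765 CPM, a log2 difference of −0.21 ± 0.058 (edgeR adjusted p = 0.00323). Exons of the pseudogene Gm15937 cover 15.3% of its exon length on the opposite strand, and the sources used here leave out the strand setting of the counting.

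Ptger2 (ENSMUSG00000037759), the receptor EP2, which also raises cAMP, was near the limit of detection. It had 7, 12 and 3 estimated counts in the control libraries and 3, 4 and 7 in the senescent ones, and the groups overlapped. Tested with no filter on low counts, its log2 fold change was −0.69 ± 0.68 (adjusted p = 0.461, edgeR), so a change was not detectable at this depth. The ratio of Ptger4 to Ptger2 per length was 59.1 to 207 in control and 84.7 to 204 in senescent medium (exact two-sided permutation p = 0.8, adjusted p = 0.8).

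Other prostanoid receptors and the nuclear receptors that bind prostaglandins moved both ways. Of 6 tested genes 2 rose, 1 fell and 3 did not pass, beside 24.6% higher and 24.9% lower over all genes. The prostacyclin receptor gene Ptgir rose from 20.2 ± 1.65 to 28.1 ± 2.06 CPM, a log2 difference of 0.48 ± 0.078 (edgeR adjusted p = 5.66e-06), in the same direction as the synthase gene Ptgis. Tbxa2r, the thromboxane receptor gene, fell from 24.1 ± 1.16 to 17.3 ± 2.33 CPM (−0.48 ± 0.087). Ptgfrn, whose product binds the prostaglandin F receptor and lowers its ligand binding, rose from 149 ± 2.88 to 176 ± 3.52 CPM (0.25 ± 0.037). Pparg, Ppard and the EP1 gene Ptger1 had log2 fold changes of 0.059 ± 0.11, 0.022 ± 0.053 and 0.0038 ± 0.24, whose signs turned with library totals. The Ptger1 value is uncertain, since the strand setting of the counting is unknown. The EP3 gene Ptger3 lay below the filter, and the prostaglandin D receptor genes Ptgdr and Ptgdr2 were not listed.

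Genes that carry prostaglandins across membranes or break them down moved both ways. Of 7 tested genes 4 rose and 1 fell (2 and 2 with per-length totals), beside 24.6% higher and 24.9% lower over all genes, and the median over the list was 0.25 (log2). Slco2a1, the prostaglandin transporter that takes prostaglandins up, was abundant and rose from 515 ± 18.8 to 614 ± 7.06 CPM (0.25 ± 0.034, adjusted p = 2.15e-07, edgeR). Abcc4, a pump that exports prostaglandin E2, rose from 35.0 ± 1.37 to 45.9 ± 1.83 CPM (0.39 ± 0.059), while Slco3a1, a further organic anion transporter, fell from 47.2 ± 1.34 to 38.8 ± 0.815 CPM (−0.28 ± 0.056). Hpgd, which starts the inactivation of prostaglandins, was very low, at 0.626 ± 0.291 and 1.27 ± 0.374 CPM; it was called higher (1.03 ± 0.39, adjusted p = 0.0274, edgeR), but not with DESeq2 (adjusted p = 0.0858), with per-length totals (0.0512) or without control replicate 2 (0.144), control replicate 3 (0.0895) or senescent replicate 2 (0.180). The reductase gene Ptgr2 rose by 0.30 ± 0.073 with overlapping libraries, a call lost with per-length totals (0.17, adjusted p = 0.0587), and exons of Gm47484 cover 32.0% of it on the opposite strand; Ptgr1 and Zadh2 missed the threshold (0.067 ± 0.056 and −0.054 ± 0.044), though Zadh2 was called lower with library totals (−0.14, adjusted p = 0.0124) and with per-length totals (−0.18, adjusted p = 0.0014).

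**Figure D4:**
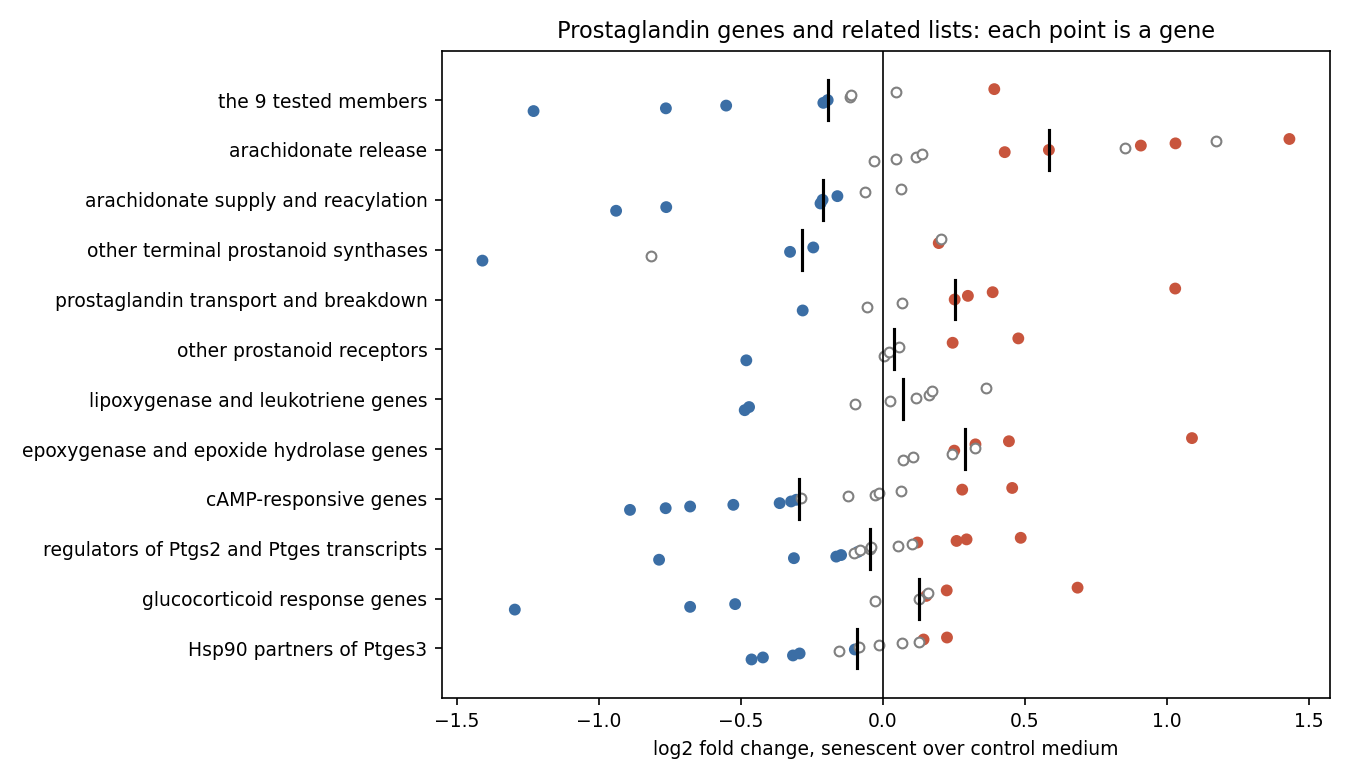
Log2 fold change of senescent over control medium (x axis) for each tested gene of the prostaglandin set and of 11 related lists (rows); filled points passed the adjusted threshold, open points did not, and the black bar is the list's median. Medians run from −0.30 for the cAMP-responsive genes to 0.58 for arachidonate release.

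The order of the levels per length changed between the media. In control medium the mean TPM ran from Ptgs2 (268) through Ptgs1 (141), Ptges3 (123), Pla2g4a (115), Ptges (104) and Ptgis (81.8) to Ptger4 (22.7), Ptges2 (11.8), Ptgfr (10.5) and Ptger2 (0.250). Among neighbours in that order the ranges of the 3 libraries overlapped only for Ptges3 and Pla2g4a. In senescent medium the order was Ptgs2 (214), Ptges3 (104), Ptgis (98.1), Ptges (98.1), Ptgs1 (76.0), Pla2g4a (71.6), Ptger4 (18.0), Ptges2 (9.91), Ptgfr (4.08) and Ptger2 (0.143). There the libraries of Ptges3, Ptgis and Ptges overlapped, while those of Ptges and Ptgs1, and of Ptgs1 and Pla2g4a, did not. Ptgs1 thus went from rank 2 to rank 5 and Ptgis from rank 6 to rank 3. With the longest annotated transcript as length, Pla2g4a ranked 2 in both media (172 and 107.5 TPM), Ptgs1 went from rank 3 to 6, and Ptgis still went from 6 to 3.

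Genes known to be induced by cAMP, the messenger of EP2, EP4 and the prostacyclin receptor, were called lower more often than higher. Of 14 tested genes 7 fell and 2 rose, beside 24.9% lower and 24.6% higher over all genes. The median over the list was −0.30 (log2). Those called higher were Nr4a2, from 6.12 ± 0.499 to 8.39 ± 0.37 CPM, and Ereg, from 13.5 ± 2.58 to 16.4 ± 1.11 CPM with overlapping libraries. The phosphatase gene Dusp1 fell from 86.1 ± 4.30 to 53.9 ± 2.03 CPM (−0.68 ± 0.050) and the cAMP phosphodiesterase genes Pde3b and Pde4d from 25.4 ± 2.46 to 15.0 ± 1.69 CPM and from 32.5 ± 1.66 to 26.0 ± 0.776 CPM. Many other signals act on these genes, and cAMP itself was not measured.

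Of 15 tested regulators of the Ptgs2 and Ptges transcripts 4 rose and 5 fell, beside 24.6% higher and 24.9% lower over all genes. The median over the list was −0.046 (log2). The receptor gene Il1r1, through which interleukin 1 induces COX-2, fell from 300.1 ± 7.37 to 174 ± 1.32 CPM (−0.79 ± 0.035, adjusted p = 4.69e-18, edgeR). Mapkapk2, a kinase that stabilises transcripts such as that of Ptgs2, fell from 149 ± 5.80 to 120 ± 4.85 CPM (−0.31 ± 0.042). Egr1, a transcription factor that acts on the Ptges promoter, rose from 26.3 ± 1.28 to 36.9 ± 1.62 CPM (0.49 ± 0.065).

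The genes whose log2 CPM followed Ptgs2 most closely over the 6 libraries were Emx2os, Zfp788, Setdb1, Akirin1 and Tcaf2, with Pearson's r of 0.994, 0.992, 0.988, 0.988 and 0.987 among 10257 genes with at least 5 CPM. The 6 points fall into 2 media and the genes were picked for this likeness, so these values are a description. Their log2 fold changes, from −0.35 ± 0.14 for Emx2os to −0.12 ± 0.047 for Akirin1, lie on both sides of the −0.19 of Ptgs2.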

How the data were processed

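RNA of 6 libraries, 3 for each medium, was sequenced in paired reads of 150 bp from about 600 ng per sample, per the labels' protocols. The authors deposited estimated counts per gene, not normalized; STAR, DESeq2 and mm39 are the names listed, without their roles, per the submitters' processing notes. How reads were assigned to genes, with which annotation and strand rule, is not given here. Every listed gene sums to at least 10 counts. Symbols and exon lengths came from GENCODE M21 (GRCm38), matched on identifiers (18092 of 18124). Its exon coordinates were used only for the share of a gene's exons that another gene overlaps, which refers to GRCm38.

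Counts were rounded and tested with edgeR 4.0.16 in R 4.3.3 (robust quasi-likelihood F-test, two-sided, TMM scaling, expression filter, medium as the only term), with Benjamini-Hochberg adjustment over 14644 genes and a threshold of 0.05. Each SE was derived from the log2 fold change and its F statistic. On simulated data for this comparison the test recovered 48%, 78%, 84% and 100% of 50 genes changed 1.2, 1.5, 2 and 4-fold, with 7 false calls among 14444 genes. The simulation changed few genes, as many up as down, whereas 49.5% were called in the data. It therefore does not cover errors of scaling. Ratios used exact permutation tests. Alternatives used DESeq2 1.42.0, limma 3.58.1 (voom), other scalings, filters and thresholds, a replicate block and each library left out; scaling by per-length totals was added after the data were seen.

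The 10 genes and the 11 related lists were chosen with earlier results of these data known. Named are the 10 genes, the 3 genes with the smallest adjusted p of each list (at least 1 CPM in either medium), all tested genes of the synthase, transport and receptor lists, and the 5 genes most like Ptgs2. Genes below the filter or not listed are named for completeness. Hsp90aa1 and the genes called higher in the Hsp90, cAMP and glucocorticoid lists were added later and not followed singly through the alternatives.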

Additional observations from a re-analysis of the deposited data

How the results depend on the processing

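Over 17 alternatives, 143 of 153 values of the 9 tested genes kept their direction and their side of the threshold. Ptgs1, Pla2g4a, Ptgfr, Ptger4 and Ptgis kept their calls in all 17, with log2 fold changes of −0.89 to −0.72, −0.68 to −0.52, −1.36 to −1.15, −0.34 to −0.18 and 0.27 to 0.43. Ptgs2 lost its call at a threshold of 0.01 (adjusted p = 0.0152) and without control replicate 2 (0.0850), with −0.32 to −0.14 over all alternatives. Ptges3 passed in 5 alternatives, also without control replicate 2 (adjusted p = 0.0443) or senescent replicate 3 (0.0406), and Ptges2 passed with per-length totals (−0.25, adjusted p = 0.0243). The number of the 9 genes called lower was 4 to 7 and the number called higher was 1 throughout.

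The counts over all genes moved by over 1.5 times with 1 setting. With per-length totals 2117 genes were called higher and 5588 lower, against 3607 and 3644, and with library totals 2589 and 4813. Signs of genes that missed the threshold turned as follows. With library totals they were −0.036 for Ptges, −0.014 for Ptgr1, −0.059 for Ppard, −0.023 for Pparg and −0.077 for Ptger1, and with per-length totals −0.083, −0.061, −0.11, −0.069 and −0.12 in the same order. Ptger1 also turned with DESeq2 (−0.00054) and without control replicate 2 (−0.17), control replicate 3 (−0.14) or senescent replicate 3 (−0.13), Ppard without control replicate 3 (−0.0017) or senescent replicate 2 (−0.017), and Pparg without senescent replicate 2 (−0.034). With a library left out the highest values were 0.38 for Ptger1, 0.071 for Ppard and 0.13 for Pparg. The cause was not tested. With both scalings the Hsp90 list had 1 gene higher and 8 lower (2 and 5 in the main test), the regulators 8 lower (5), the other synthases 0 higher (1), the transport list 2 lower (1) and the cAMP list 1 higher (2); with per-length totals alone the transport list had 2 higher (4) and the glucocorticoid list 1 (3). The cAMP list also had 1 higher with DESeq2, at a threshold of 0.01 and without control replicate 1 or 2 or senescent replicate 2 or 3; the other synthases had 2 without senescent replicate 1 and 0 without senescent replicate 2; and the supply list had 1 (0) with upper quartile factors.

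Same-numbered libraries did not deviate together from their group means (r = 0.0187, 0.00189 and 0.0262), and not every library correlated best with its own number. With the replicate number as a block 3704 genes were higher and 3698 lower, and of the 9 genes 1 was higher and 6 lower, the added one being Ptges3 (−0.12, adjusted p = 0.0411). The mean differences between media in the 3 log2 ratios, 0.57, −0.35 and 0.40, are the same under any pairing, so the pairing cannot test them. With a library left out, the difference in the log2 ratio of Ptger4 to Ptger2 ran from 0.013 to 0.92. Depth limits the genes below the filter, among them Ptger2.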

Other observations

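Genes of the other arms of arachidonic acid metabolism are given beside the shares of all genes, 24.6% called higher and 24.9% lower; the arms were not tested against each other. Of 8 tested epoxygenase and epoxide hydrolase genes 4 rose and 0 fell (edgeR), and the median over the list was 0.29 (log2) in senescent medium. Cyp1b1, an abundant cytochrome P450 gene of stromal cells, rose from 1191 ± 49.8 to 1621 ± 13.9 CPM, Ephx1, the microsomal epoxide hydrolase gene, from 341 ± 15.0 to 427 ± 8.76 CPM and Cyp4f13 from 6.27 ± 0.423 to 13.4 ± 0.571 CPM (SD, n = 3 each). Of 8 tested lipoxygenase and leukotriene genes 0 rose and 2 fell (edgeR). Both counts of 0 were also 0 at an unadjusted p under 0.05, with DESeq2 and with limma. The 5-lipoxygenase gene Alox5 itself stood at only 1.07 ± 0.204 and 1.08 ± 0.425 CPM. The genes that fell were Dpep1 and Ggt5, whose products process leukotrienes and glutathione outside the cell, from 67.0 ± 1.63 to 48.3 ± 1.34 CPM and from 24.7 ± 1.55 to 17.6 ± 1.18 CPM. Lta4h, which makes leukotriene B4, missed the threshold (−0.096 ± 0.056 in log2 terms, edgeR adjusted p = 0.159), but was called lower with library totals (−0.18, adjusted p = 0.0094) and with per-length totals (−0.23, adjusted p = 0.00155).

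Glucocorticoids lower COX-2 and phospholipase A2 activity in many cells, and genes of their response moved both ways. Of 9 tested genes 3 rose and 3 fell, and the median over the list was 0.13 (log2). Those that rose were Anxa1, from 974 ± 28.2 to 1084 ± 44.7 CPM, Hsd11b1, from 6.27 ± 0.209 to 10.1 ± 0.955 CPM, and Nr3c1, from 117 ± 4.47 to 136 ± 2.67 CPM. The kinase gene Sgk1 fell from 177 ± 4.16 to 72.2 ± 3.16 CPM (−1.29 ± 0.042, adjusted p = 2.24e-21, edgeR), and Errfi1, a feedback inhibitor of the epidermal growth factor receptor, from 199 ± 8.49 to 139 ± 6.89 CPM. Dusp1, which the cAMP list also holds, is the third gene that fell. The 11 lists hold 132 different genes, not all of which were tested. Of the tested ones 27 were called higher and 31 lower. The shares over all genes tested, 24.6% and 24.9%, compare with the tested genes of the lists and not with all 132.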
